A study of Mus musculus with 4 samples.

Results

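The genes described here encode the structural proteins, and a few of the enzymes and secreted proteins, that keratinocytes make in the granular layer of the epidermis as they flatten into the cornified layer. They were taken from a list of 36 gene symbols, with every further gene on the array whose name starts with Lce added, and 34 of them were measured. Crnn, Lce3a and Lce3b were matched to no probe by name, and Lce1j was the one Lce gene outside the list. The 34 genes were compared among the 15552 genes that passed the filter on dim probes. They fall into 13 Lce1 genes, 2 Lce3 genes, 5 fused-type S100 genes, 6 envelope and junction genes, 3 enzymes and 5 secreted, surface or calcium-binding genes. The rule that chose them uses gene names and no measured value, although the list was drawn up with earlier results of these data known.

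Whole back skin was taken at postnatal day 10 from 4 pups and hybridised to 4 one-colour Agilent whole mouse genome arrays. The 2 conditional knockout (cKO) pups were Adam17flox/flox and carried Krt14-Cre, a recombinase driven by the promoter of a keratin of basal keratinocytes and of the outer root sheath. The 2 control pups were littermates without Krt14-Cre, which the labels call wild-type, and whether they carried 1 or 2 floxed Adam17 alleles is not stated. One control and one cKO pup came from each of 2 litters, and both genotypes were on a mixed 129Sv and C57BL/6 background. The comparison addresses how loss of ADAM17, a membrane protease that sheds growth factor precursors and receptors from the cell surface, alters the skin. Every cKO pup and no control pup carried the Cre transgene, so what Cre does and what losing Adam17 does cannot be told apart. In a whole-skin extract, fewer cells of a type and less RNA per cell cannot be told apart either.

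Keratinocytes leave the basal layer, fill with keratin filaments in the spinous layer, and in the granular layer assemble a cross-linked protein shell beneath the plasma membrane. Loricrin, involucrin, the late cornified envelope (Lce) proteins and the plakins envoplakin and periplakin are building blocks of that shell, and transglutaminases join them. Profilaggrin is stored in granules, processed to filaggrin that bundles keratin, and finally broken down to free amino acids that hold water. Many of the genes lie together on mouse chromosome 3 in a cluster named the epidermal differentiation complex.

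All values are log2 signals relative to the 75th percentile of the same array, so a level of 1 is a signal of 2 times that percentile. Differences are cKO minus control on the log2 scale with the standard error (SE) of limma's fit, and adjusted p-values are Benjamini-Hochberg values over all 15552 genes. On the 4 arrays 53.7% to 56.6% of the gene spots were well above background, no gene spot was saturated, and the 75th percentile lay between 751 and 784 intensity units. All 34 genes were well above background on all 4 arrays. Adam17 itself read 0.44 and 0.37 in controls 1 and 2 and -0.14 and -0.12 in cKO 1 and 2. Its signal in the cKO skin was 69.0% of the control signal (difference -0.54 ± 0.09 SE, n = 2 and 2, limma adjusted p = 0.114), and a second probe gave 68.5%. The labels do not name the floxed exons, and a probe lying outside them would not show the deletion.

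None of the 34 genes passed limma's test at an adjusted p under 0.05, a threshold that 0.341% of all genes passed (0.0707% higher and 0.27% lower). With the litter as a replicate block none of the 34 and 0% of all genes passed, so every difference given below is a measured value and not a called change. At an unadjusted p under 0.05, 19 of the 34 were higher and 3 lower, against 8.04% and 8.11% of all genes. In 22 of the 34, both cKO arrays lay above both control arrays, which held for 28% of all genes. In 9 of the 34 both cKO arrays lay below both controls, against 21.4% of all genes, and in 3 the groups overlapped. The same shares of all genes apply to the counts for each group of genes below. With normexp background correction 16 of the 34, not 22, were higher without overlap. Repeated without spots below their local background, an alternative chosen after seeing the data, normexp gave 21. The median difference of the 34 genes was 0.35, and the median over all genes was 0.03. The Lce1 genes carried much of that median, since the 21 other genes had a median of 0.02, with 10 higher and 9 lower without overlap. With 2 arrays a group, an exact permutation test of any single gene cannot go below a two-sided p of 0.333.

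**Figure D1:**
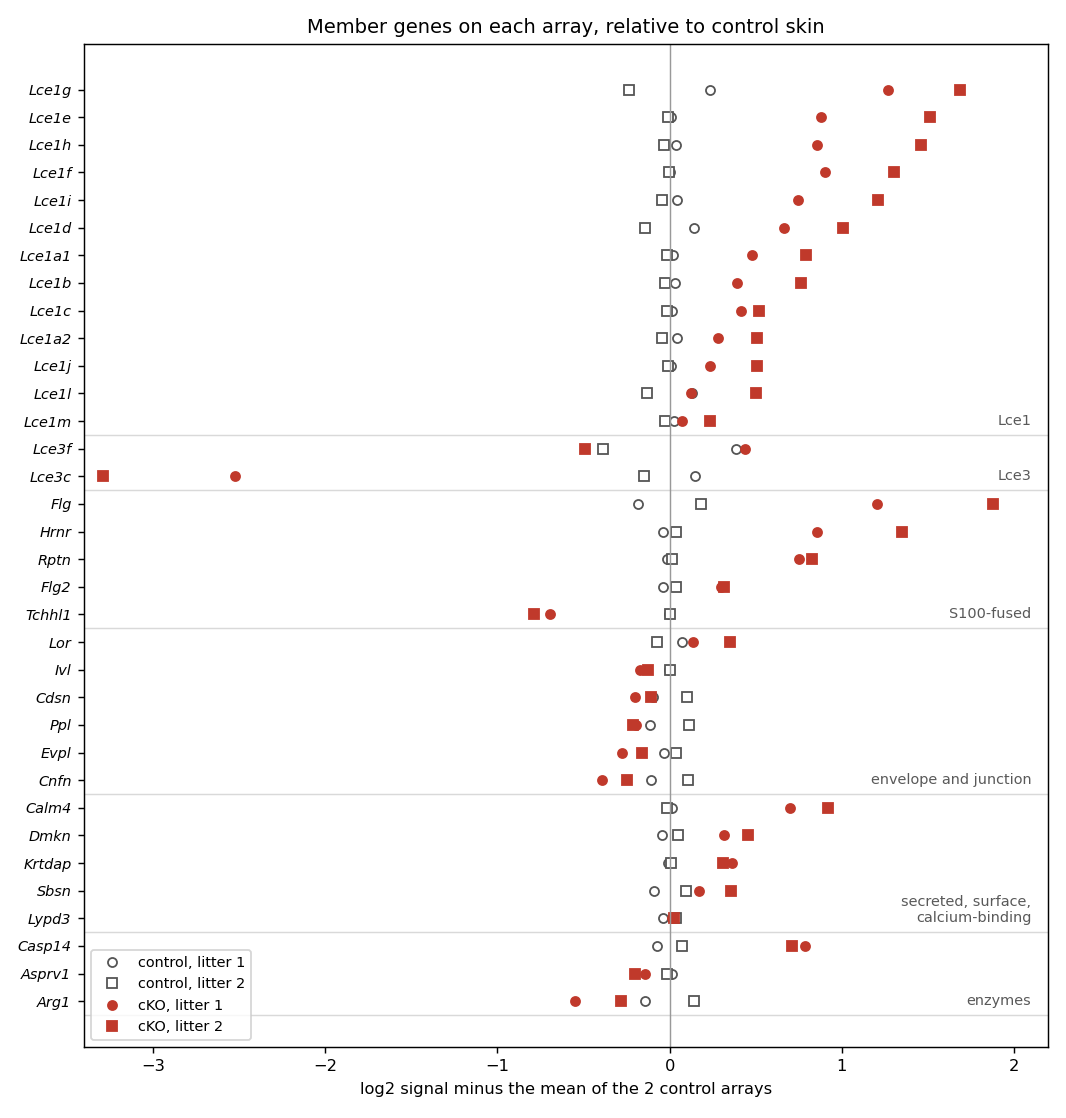
Level of each of the 34 genes on each of the 4 arrays, as log2 signal relative to the array's 75th percentile with the mean of the controls subtracted, one row per gene and grouped by role. Nearly all Lce1 rows have both cKO points to the right of both control points, and the Lce3c points of the cKO arrays lie far to the left.

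The Lce1 genes encode small cysteine- and glycine-rich proteins that are added to the envelope late in cornification, and they were the most uniform group. In 12 of 13 both cKO arrays lay above both controls, and the median difference was 0.64. Their promoters were read to describe which of these genes are alike upstream and which are not. The 70 bases directly upstream of the RefSeq start on GRCm38.p6 are printed for 4 of the 12 Lce1 genes with an entry, chosen because they span the range from the largest to the smallest difference, and for both Lce3 genes. Capitals mark the 9-base run CTGTCTCAC and the TATA-like box ATAAAAGG.
Lce1g (chr3:92752339-92752408, minus strand): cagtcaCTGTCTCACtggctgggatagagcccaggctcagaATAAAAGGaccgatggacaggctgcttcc
Lce1h (chr3:92765066-92765135, minus strand): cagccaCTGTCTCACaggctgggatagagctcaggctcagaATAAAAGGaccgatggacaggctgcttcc
Lce1j (chr3:92790515-92790584, minus strand): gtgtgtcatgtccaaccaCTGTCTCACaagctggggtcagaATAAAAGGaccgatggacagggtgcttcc
Lce1m (chr3:93019062-93019131, minus strand): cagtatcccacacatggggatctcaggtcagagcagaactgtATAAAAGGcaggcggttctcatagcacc
Lce3c (chr3:92944416-92944485, plus strand): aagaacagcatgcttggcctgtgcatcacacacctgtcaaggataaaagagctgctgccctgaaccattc
Lce3f (chr3:92992147-92992216, plus strand): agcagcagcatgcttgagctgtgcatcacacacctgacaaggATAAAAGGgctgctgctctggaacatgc

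Compared position by position without alignment, the Lce1g and Lce1h stretches were identical at 95.7% of positions. Counted in the same way, Lce1g shared 31.4% with Lce1m, 22.9% with Lce1l and 35.7% with Lce3c. The letters ATAAAAG sit at another offset in Lce1m, Lce1l and Lce3c than in Lce1g, so these low values can understate the likeness. Both motifs were picked by reading these Lce1 promoters, so how often they occur there was set by that choice and is a description only. Over the 250 bases upstream of the start, searched on both strands, CTGTCTCAC was found in 9 of the 12 Lce1 promoters and in 0.399% of 32851 RefSeq promoters. ATAAAAGG was found in 10 of the 12 Lce1 promoters and in 1.54% of all promoters, and the pair of motifs share no position. The 9 genes with the CTGTCTCAC run had differences from 0.37 to 1.48. The 0.37 is that of Lce1j, for which a second probe gave 0.66. The 3 without the run, Lce1c, Lce1l and Lce1m, had differences from 0.15 to 0.47. These ranges overlap, and a match describes the letters only and is not evidence that a factor binds there.

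Lce1g had the largest Lce1 difference. It read 1.14 and 0.67 in controls 1 and 2 and 2.17 and 2.59 in cKO 1 and 2. The groups did not overlap, and the nearest cKO and control arrays were 1.03 apart. The difference was 1.48 ± 0.23 SE, a 2.78-fold higher signal in cKO skin (limma adjusted p = 0.111). Lce1e read 2.49 and 2.47 in the controls and 3.36 and 3.99 in the cKO skin. Its controls were almost equal and both cKO arrays were well above them, giving a difference of 1.20 ± 0.23 SE or 2.29-fold (limma adjusted p = 0.141).

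Lce1f had the smallest adjusted p of the Lce1 genes. Controls 1 and 2 both read close to 2.66, and cKO 1 and 2 read 3.56 and 3.96. Its difference was 1.10 ± 0.16 SE, or 2.15-fold, with a limma adjusted p of 0.0987. Lce1h, next to Lce1g on the chromosome, read 0.66 and 0.59 in the controls and 1.48 and 2.08 in the cKO skin. That is a difference of 1.16 ± 0.22 SE and 2.23-fold (limma adjusted p = 0.141), again without overlap.

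Lce1i read 3.09 and 3.00 in the controls against 3.79 and 4.26 in the cKO skin (difference 0.98 ± 0.18 SE). Lce1d read 4.65 and 4.37 against 5.18 and 5.51 (0.84 ± 0.17 SE). Neither pair of groups overlapped, and their limma adjusted p-values were 0.135 and 0.156. The further Lce1 genes with separated groups had smaller differences. They were 0.64 ± 0.14 SE for Lce1a1, 0.58 ± 0.15 for Lce1b, 0.47 ± 0.09 for Lce1c, 0.40 ± 0.12 for Lce1a2, 0.37 ± 0.12 for Lce1j and 0.15 ± 0.10 for Lce1m. Lce1c had the smallest spread of these, at 4.20 and 4.17 in the controls and 4.60 and 4.70 in the cKO skin. A second Lce1j probe gave 0.66, with 0.43 in litter 1 and 0.89 in litter 2. The size of the Lce1j difference therefore depends on the probe. Lce1m, which read 5.59 and 5.54 in the controls and 5.64 and 5.80 in the cKO skin, barely separated, and its sign turned under one alternative background correction. Lce1l was the one with overlap, since control 1 at -1.56 and cKO 1 at -1.57 were level while control 2 read -1.82 and cKO 2 read -1.19.

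Near-identical neighbours can share signal on an array, so the probe sequences of the Lce genes were compared. Among 167 pairs of 60-base probes for different Lce genes, 2 shared a run of 17 bases and the rest shared at most 10. The stretches are shown because the genes concerned include those with the largest differences, with the shared run in capitals.
Lce1e probe: tgaaatCTCCTGGGAAATGTTCTatgttct
Lce1i probe, shared with Lce1e: CTCCTGGGAAATGTTCTgcattgtcctcat
Lce1g probe: caatgaCCATTTGCCTCTTTGTTataaatt
Lce1i probe, shared with Lce1g: gaaacgacaatgcCCATTTGCCTCTTTGTT
Matches of these probes to other transcripts were not searched.

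**Figure D2:**
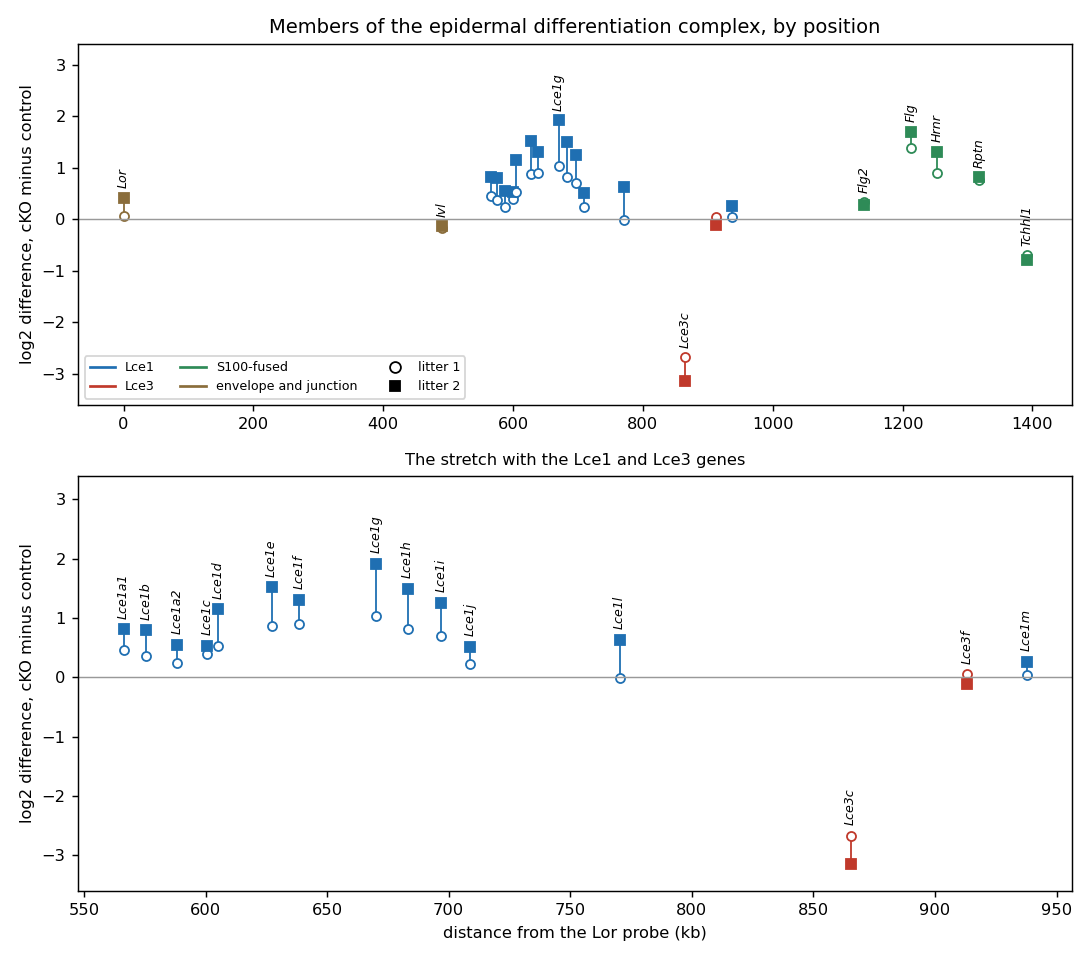
Difference between cKO and control skin (log2) for the 22 genes on chromosome 3, drawn by the distance in kilobases of the probe from the Lor probe; open circles are litter 1, filled squares litter 2, and the lower panel enlarges the stretch with the Lce1 and Lce3 genes. The high Lce1 values stand side by side, Lce3c is the single deep low point, and the fused-type S100 genes follow at the far end.

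Along chromosome 3 (mm9), 22 of the 34 probes lay between Lor at 91884206 and Tchhl1 at 93275148, a distance of 1391 kb. The genes from Lce1a1 to Lce1j filled 143 kb, and within it Lce1e, Lce1f, Lce1g, Lce1h and Lce1i, whose differences ran from 0.98 to 1.48, lay in one stretch of 69.8 kb. Lce1m lay 229 kb beyond Lce1j and had the smallest Lce1 difference.

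The size of the Lce1 difference depended on the litter. The median over the 13 genes was 0.46 in litter 1 and 0.81 in litter 2, and the litter 2 difference was the larger in 13 of 13, against 47% of all genes. For Lce1g the differences were 1.03 and 1.92 in litters 1 and 2, and for Lce1d 0.53 and 1.14. Both genotypes contributed to this. The cKO pup of litter 2 read above that of litter 1 in 13 of 13 Lce1 genes (51.7% of all genes), by a median of 0.37. The control pup of litter 2 read below that of litter 1 in 13 of 13 (55% of all genes had the opposite order), by a median of 0.06 and by 0.47 for Lce1g. With 1 pup of each genotype per litter, a litter effect and the difference between pups cannot be told apart. Leaving out 1 array in turn moved the Lce1 median between 0.48 and 0.79. Normexp background correction gave 0.40, and 0.65 when spots below their local background were left out.

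**Figure D3:**
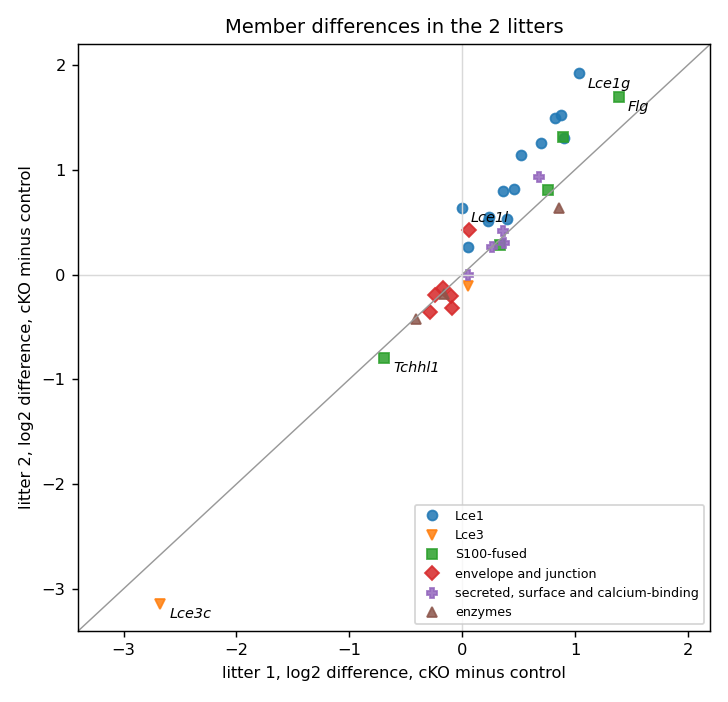
Difference between cKO and control skin in litter 1 (x axis) against litter 2 (y axis), both log2, for each of the 34 genes with colours by role; the diagonal marks equal differences. All 13 Lce1 points lie above the diagonal, Lce3c lies below zero on both axes, and most other genes lie close to the line.

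Lce3c went the other way and had the largest difference of the 34 genes. In humans the LCE3 genes are known for being switched on in injured and psoriatic epidermis. Lce3c read 2.00 and 1.70 in controls 1 and 2 and -0.68 and -1.44 in cKO 1 and 2, so the groups were 2.37 apart at their nearest. The difference was -2.91 ± 0.29 SE, a 7.50-fold lower signal in cKO skin, or 13.3% of the control signal. It was present in both litters, at -2.67 and -3.14. Its limma adjusted p was 0.0571, just short of the threshold, and 0.0729 with the litter as a block. Lce3c was 1 of 18 genes, 0.116% of all tested, with a difference as low or lower. The limma adjusted p of Lce3c depended on the setting. It was 0.0292 with each array scaled to its median and 0.0362 without cKO replicate 1. It was 0.0690 without cKO replicate 2, 0.172 without control replicate 2, 0.211 without the filter on dim probes and 0.475 with normexp background correction. Without control replicate 1 the smallest adjusted p of the 34 genes was 0.195, for Lce1g.

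A second probe gave -2.90 for Lce3c. It is not independent, since both probes contain the 26-base run tcaagaaaagcccagctagtcttgtt and the second also lists an Lce3b accession. Signal from Lce3b, which has no probe of its own by name, can therefore not be told apart from Lce3c on that probe. The brightest Lce3c probe lists no Lce3b accession, but whether it also matches Lce3b was not searched. Lce3f, the other Lce3 gene measured, was dim at -2.08 and -2.85 in the controls and -2.03 and -2.95 in the cKO skin. The groups overlapped completely, with a difference of -0.03 ± 0.42 SE (limma adjusted p = 0.980). Its direction was unsettled, being -0.11 in litter 2 and 0.05 in litter 1, and turning positive in several alternative settings. The upstream stretches of Lce3c and Lce3f printed above were identical at 84.3% of positions, although their differences were unlike.

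The fused-type S100 genes encode large repeat proteins of the keratohyalin granules, and 4 of 5 were higher in cKO skin without overlap. The median was 0.79. Flg, which encodes profilaggrin, read 2.45 and 2.81 in the controls and 3.83 and 4.51 in the cKO skin. Both cKO arrays were at least 1.02 above both controls, and the difference of 1.54 ± 0.27 SE, 2.91-fold, was the largest positive difference among the 34 genes (limma adjusted p = 0.129). A second Flg probe, 13.4 kb away, gave 0.99, so the size of the Flg difference depends on the probe. Hrnr, encoding the related hornerin, read 1.73 and 1.80 in the controls and 2.62 and 3.11 in the cKO skin. Its difference was 1.10 ± 0.19 SE or 2.15-fold (limma adjusted p = 0.123), and a second probe gave 0.97.

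Rptn, which encodes repetin, had nearly the same difference in both litters. It read -1.28 and -1.26 in the controls and -0.52 and -0.44 in the cKO skin, with 0.76 and 0.81 as the differences of litters 1 and 2. The fit gave 0.79 ± 0.09 SE, 1.73-fold, with a limma adjusted p of 0.0635. Flg2 read 2.97 and 3.04 in the controls and 3.30 and 3.32 in the cKO skin, a smaller but separated difference of 0.31 ± 0.09 SE (limma adjusted p = 0.225).

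Tchhl1, a trichohyalin-like member of the same family, was the exception. It read 2.24 and 2.25 in the controls and 1.55 and 1.45 in the cKO skin. The groups were 0.69 apart, and the cKO signal was 59.8% of the control signal (difference -0.74 ± 0.09 SE, limma adjusted p = 0.0728). Trichohyalin is a protein of the inner root sheath of the hair follicle. Of 6 inner root sheath markers 4 were lower without overlap, against 21.4% of all genes, and 2 overlapped. The median difference of these markers was -0.18. Tchh, the gene of trichohyalin, was among the 4 but was nearly level, at -0.04 ± 0.08 SE. The summed signal of the 6 markers, in multiples of the 75th percentile, was 2288 and 2387 in the controls and 2016 and 2088 in the cKO skin. The part of these markers in the Tchhl1 value was not tested.

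A TGANTCA sequence, which is the recognition sequence of AP-1 factors with the middle base left free, lay within the 250 bases upstream of 9 of the 30 genes with a promoter entry, against 6.75% of all RefSeq promoters with both strands searched. It was present in 4 of the 5 fused-type S100 genes and in none of the 12 Lce1 promoters. The 40 bases around it (GRCm38.p6, the match in capitals) are shown for 4 of these genes because they held the motif in one family whose members differed in direction.
Flg (chr3:93273427-93273466, plus strand): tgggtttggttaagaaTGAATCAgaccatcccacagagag
Rptn (chr3:93393587-93393626, plus strand): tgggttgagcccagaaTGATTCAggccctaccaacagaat
Flg2 (chr3:93197188-93197227, plus strand): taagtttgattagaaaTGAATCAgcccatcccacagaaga
Tchhl1 (chr3:93468651-93468690, plus strand): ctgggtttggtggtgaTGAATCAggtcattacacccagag
The first base of the match lay 103, 96, 69 and 87 bases upstream of the start of Flg, Rptn, Flg2 and Tchhl1. These 4 matches have A or T in the middle, where the AP-1 consensus has G or C. Matches with the consensus letters, TGAGTCA and TGACTCA, occurred upstream of Lor and Ivl, whose values are given next, so genes with a TGANTCA match were higher, lower or nearly level. The absence of the letters from the Lce1 windows says only that they are not in those bases. Other patterns were searched in the same windows. TTNNGCAA, of CEBP factor type, was found upstream of 8 of the 30 genes, against 9.56% of all promoters. AACNGGTT, of GRHL factor type, was found upstream of 1, against 1.79%. A gene was counted if any of its promoter entries matched, whereas the shares are of single entries.

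The envelope and junction genes differed little. Of 6, 5 were lower and 1 was higher without overlap, and the median was -0.18. Lor, encoding loricrin, the main bulk protein of the envelope, read 8.50 and 8.36 in the controls and 8.56 and 8.78 in the cKO skin, a narrow separation with a difference of 0.24 ± 0.12 SE. Ivl, encoding the early scaffold involucrin, read 2.58 in both controls and 2.41 and 2.45 in the cKO skin (-0.15 ± 0.08 SE). Evpl, encoding envoplakin, read 7.06 and 7.12 against 6.82 and 6.93 (-0.22 ± 0.09 SE).

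Cnfn, encoding the envelope component cornifelin, had the lowest value of the group at -0.32 ± 0.12 SE, from 5.43 and 5.64 in the controls to 5.14 and 5.29 in the cKO skin. Ppl, encoding periplakin, differed by -0.20 ± 0.11 SE and Cdsn, encoding the corneodesmosome protein corneodesmosin, by -0.16 ± 0.11 SE. The limma adjusted p-values of these 6 genes lay between 0.312 and 0.548. A second Ppl probe gave 0.02 in litter 1 and -0.67 in litter 2.

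Among the enzymes, Casp14, a caspase of cornifying cells that takes part in filaggrin breakdown, was higher. It read -0.97 and -0.82 in the controls and -0.11 and -0.18 in the cKO skin, which was 1.68-fold higher at a difference of 0.75 ± 0.10 SE (limma adjusted p = 0.0876). Asprv1, a protease that cleaves profilaggrin, read 6.63 and 6.60 against 6.47 and 6.41 (-0.17 ± 0.08 SE, limma adjusted p = 0.410). Arg1, which encodes arginase, read 1.03 and 1.31 against 0.62 and 0.88, a difference of -0.42 ± 0.15 SE (limma adjusted p = 0.309). The Arg1 values were equally spaced in both litters, at -0.41 and -0.42. Macrophages also express Arg1. Of 6 macrophage markers 3 were higher and none lower without overlap, against 28% and 21.4% of all genes. The summed signal of these markers was 21.1 and 13.8 in the controls and 25.4 and 22.7 in the cKO skin. Lyz2, one of the 3 higher markers, made up most of each sum. The part of the macrophage markers in the Arg1 value was not tested.

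The secreted, surface and calcium-binding genes were higher in 4 of 5, with a median of 0.34. Calm4, a calmodulin-like protein of suprabasal skin, read 4.75 and 4.72 in the controls and 5.44 and 5.65 in the cKO skin. The groups were 0.68 apart, and the difference was 0.81 ± 0.11 SE or 1.75-fold (limma adjusted p = 0.0904). Sbsn, Dmkn and Krtdap encode the secreted proteins suprabasin, dermokine and keratinocyte differentiation-associated protein, and their probes lie within 32.0 kb of start positions on chromosome 7. Their differences were alike in sign and size, at 0.26 ± 0.12, 0.39 ± 0.10 and 0.34 ± 0.08 SE, with limma adjusted p-values from 0.198 to 0.393. Lypd3, which encodes a surface glycoprotein of suprabasal cells, read 6.57 and 6.64 in the controls and 6.63 and 6.64 in the cKO skin. It overlapped, and its difference was 0.02 ± 0.08 SE.

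The 12 genes that had more than 1 probe each had 1 further probe. All 12 further probes shared the sign of the brightest probe, and 11 of them passed the filter on dim probes. Among those that passed, the largest gap to the brightest probe was 0.56, for Flg. The further probe that did not pass, for Lce1g, was well above background on 1 array alone, so its sign carries little weight. At 2-fold or more, 6 of the 34 genes were higher (0.675% of all genes), namely Flg, Lce1g, Lce1e, Lce1h, Lce1f and Hrnr, and Lce3c was the 1 lower (1.09% of all genes).

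Other genes of cornification were taken from a list of 82 symbols, of which 73 were measured. None passed limma's test at an adjusted p under 0.05, and the lowest adjusted p was 0.0628. In 15 of the 73 both cKO arrays lay above both controls, against 28% of all genes. In 30 both lay below, against 21.4% of all genes, and the median difference was -0.04. The 24 measured further genes of the epidermal differentiation complex differed most from the Lce1 genes, with 1 higher and 16 lower without overlap and a median of -0.25. Sprr4, a small proline-rich envelope protein, was lower by a difference of -1.01 ± 0.23 SE (limma adjusted p = 0.177). Sprr2d, of the same family, was not well above background in the controls and passed the filter only through the cKO arrays. Its direction was therefore favoured by the filter and is a description only. The limma adjusted p of 0.117 belongs to its fitted difference and not to a bound. As a bound, its signal was at least 7.12-fold higher in the cKO skin. That bound sets the cKO mean against the higher of the dimmest well-detected signal and the probe's own value on the control arrays.

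The enzymes that act on these proteins went both ways. Of 3 transglutaminases 1 was higher and 2 were lower, with Tgm5 at 0.38 ± 0.10 SE and Tgm3 at -0.45 ± 0.10 SE. Of 5 genes for deimination and filaggrin breakdown 2 were higher and 3 lower. Padi2 and Padi1 encode enzymes that convert arginine to citrulline. Padi2 differed by 0.72 ± 0.11 SE and Padi1 by -0.99 ± 0.10 SE, with limma adjusted p-values of 0.114 and 0.0628. Of 13 proteases and inhibitors of the cornified layer 2 were higher and 5 lower, from Klk8, a kallikrein, at 0.92 ± 0.15 SE to Prss8, a membrane serine protease, at -0.40 ± 0.09 SE. Of 28 transcription regulators 9 were higher and 4 lower with a median of 0.04, where 28% of all genes were higher and 21.4% lower without overlap. Elf3, an epithelial ETS factor, was not well above background in the controls and, like Sprr2d, passed the filter only through the cKO arrays. As a bound it was at least 1.56-fold higher, and the limma adjusted p of 0.118 belongs to its fitted difference. Ovol1, a zinc-finger factor, differed by -0.50 ± 0.23 SE.

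**Figure D4:**
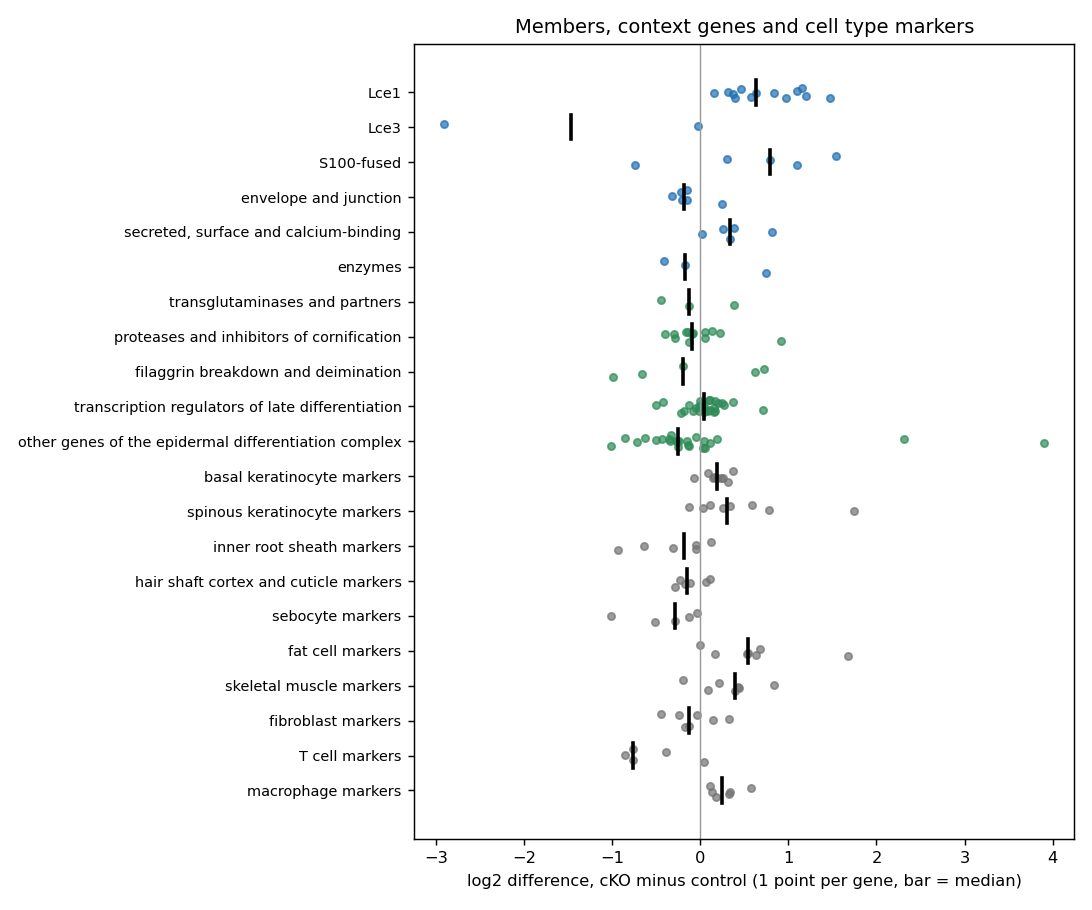
Difference between cKO and control skin (log2) of each gene, as 1 point, in the late cornified and granular groups, the other cornification lists and the marker lists, with the median of each list as a bar. Sprr2d is drawn at its fitted value although it was not well above background in the controls; the Lce1 median of 0.64 stands beside a median of -0.25 for the further genes of the epidermal differentiation complex.

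Markers of the layers and cell types of skin were set beside these values. Their counts stand against 28% of all genes higher and 21.4% lower without overlap. All 9 granular markers were measured, 5 higher and 4 lower without overlap, and 7 of them (Lor, Flg, Flg2, Hrnr, Casp14, Asprv1, Cdsn) are genes described above. Of 8 spinous markers 6 were higher and none lower, with a summed signal of 346 and 390 in the controls and 447 and 524 in the cKO skin, and Krtdap and Sbsn are on that list too. Krt1, Krt2 and Krt10, keratins of the suprabasal layers, differed by 1.74, 0.78 and 0.58, and Krt2 was dim at a control mean of -3.92. The other spinous markers were nearer level, with Dsc1 at 0.11, and Dsg1a at 0.03 and Lgals7 at -0.13 with overlap. Of 9 basal markers 8 were higher, with sums of 651 and 660 against 716 and 696. The spinous and basal sums were thus higher along with the Lce1 genes, and their part in the Lce1 values was not tested. Among cells outside the epidermis, 5 of 7 fat markers and 4 of 7 muscle markers were higher, and 4 of 5 T cell markers were lower, namely Cd3d, Cd3e, Cd3g and Cd247 by differences of -0.77, -0.39, -0.76 and -0.86. The fifth, Thy1, which other skin cells also express, overlapped at 0.04 and made up most of the T cell sum of 18.0 and 13.4 against 18.7 and 13.1. The medians were -0.15 for the hair shaft, -0.28 for sebocytes and -0.13 for fibroblasts. Of 6 hair shaft markers 1 was higher and 3 were lower without overlap. All 5 sebocyte markers overlapped, as did 6 of 7 fibroblast markers, and the remaining fibroblast marker was higher. Another 9 listed markers (Krt77, Krt72, Krt73, Krt81, Krt83, Krt86, Mc5r, Awat1 and Trdc) had no tested value and are in none of these sums.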

How the data were processed

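The deposited values are spot intensities of the Agilent design 014868 from Feature Extraction, version 10.5 per the submitters' processing notes and 10.7.3.1 per the file headers. The processed intensity, already background-subtracted by the authors' scanner software, was used; probe positions are mm9 as per the file headers. Outlier spots (51 to 66 an array) and control spots were left out, and repeated spots were averaged per probe. Log2 intensity minus each array's 75th percentile was fitted with limma 3.58.1 in R 4.3.3 (2 residual and 2.37 prior degrees of freedom). The deposited series table holds log2 values that only served to check these. The correlation was 0.99999 or more once each probe's median over the 4 arrays had been subtracted from the values used here. Probes well above background on the 2 arrays of either group were kept, 22190 in all, and the brightest probe stood for a gene. P-values measure only the spread between these pups.

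The litters come from the labels. Deviations from the group means of the litter 1 pups correlated at 0.35 across genes, so the litter was tried as a replicate block. All 34 genes are named, and of each other cornification list the highest and lowest. Of the marker lists, single values are given only for spinous and T cell genes, for Tchh, and for markers among the 34. Members and lists were chosen with earlier results of these data known. All 4 arrays lay on 1 slide in 1 scan. The script was tested on simulated data. Alternatives were the deposited series table, median scaling, quantile normalization, no filter, a stricter filter, the mean over probes, normexp background correction with an offset of 50, the block and leaving out each array.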

Additional observations from a re-analysis of the deposited data

Results flagged for a closer look

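For 3 genes the difference between cKO and control skin had opposite signs in the litters. It was -0.0053 in litter 1 and 0.63 in litter 2 for Lce1l, 0.052 and -0.11 for Lce3f, and 0.052 and -0.0075 for Lypd3. Each litter holds 1 pup of each genotype, and the difference between litters was not tested. A second Lce1g probe, which did not pass the filter, was well above background on 1 array alone, that of cKO 2, where it read -4.10 on the log2 scale.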

How the results depend on the processing

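With 2 arrays a group, the share of all genes with a limma adjusted p under 0.05 was unstable. It was 0.341% as reported, 0.688% with median scaling and 0.187% when a probe had to be well above background on every array. It was 0% without the filter on dim probes, with normexp, with the litter as a replicate block, and without either control array, and 0 to 0.244% over the 4 arrays left out in turn. On the arrays 3 spots, control spots included, lay below their local background, and normexp was repeated without them, an alternative chosen after seeing the data, which gave 0.868%. Of the 34 genes none passed with the block. With median scaling 1 passed (Lce3c), with the added normexp 3 (Lce3c, Rptn at 0.62 and Tchhl1 at -0.70) and with 1 array left out 0 to 1 (Lce3c without cKO replicate 1). Of the other cornification genes 1, Padi1, passed with the added normexp. Under normexp the medians were 0.40 for Lce1, -0.92 for Lce3, -0.47 for envelope and junction genes and 0.091 for secreted genes. For enzymes the normexp median was -0.46, and for the other cornification genes -0.27. With the added normexp the medians were, in the same order, 0.65, -1.35, -0.20, 0.31, -0.18 and -0.056, nearer to those reported. The other cornification genes had -0.11 with the mean over probes. The fused-type S100 median was 0.62 with the added normexp. With 1 array left out the medians were -1.89 to -1.04 for Lce3, 0.75 to 0.83 for S100 genes, -0.25 to -0.12 for envelope and junction genes, and -0.20 to -0.15 for enzymes. Signs turned for 3 genes: Lce1m under normexp (-0.16); Lce3f under normexp (0.67), the added normexp (0.019), and without cKO replicate 2 (0.44) or control replicate 1 (0.36), with a range of -0.49 to 0.44 over the arrays left out; and Lypd3 under normexp (-0.29), the added normexp (-0.015) and without control replicate 1 (-0.013), with a range of -0.013 to 0.058. The causes were not tested. Where 1 array was left out, the lone array was assumed to vary like the other group.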
